A study of Rattus norvegicus with 6 samples.

Results

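Of 43360 Ensembl gene IDs counted in rat liver, 3 are described here: Stat3 (ENSRNOG00000019742), Lcn2 (ENSRNOG00000013973) and Hp (ENSRNOG00000014964). They were chosen by ID, as the gene of the signal transducer STAT3 and 2 acute phase genes. The count files carry IDs without symbols, and the reference table holds no Ensembl IDs, so the names are those under which the IDs were chosen and were not checked against an annotation. One more ID on the list, for Socs3, the feedback inhibitor of STAT3 signalling, was not analysed here, and neither were other genes of the pathway or markers of other cell types.

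The study compared livers of male Fischer-344 rats, an inbred strain, over 16 weeks. HCC/NAC rats were injected weekly with diethylnitrosamine (DEN), a carcinogen that alkylates DNA in the liver, at 50 mg/kg and then given oral 2-acetylaminofluorene (2-AAF), an aromatic amine carcinogen, at 25 mg/kg. In addition they received daily oral N-acetylcysteine (NAC), a cysteine donor, at 300 mg/kg. HCC rats received both carcinogens without NAC; the combination is a model of hepatocellular carcinoma (HCC). Control rats received oral carboxymethyl cellulose at 0.5% daily. The design lists 18 rats in 3 groups, without ages. RNA from 5 animals was pooled within each group, and 2 poly(A) libraries were made per group, so no value belongs to a single animal. The labels do not say whether the 2 libraries of a group held different animals, and p-values measure only the spread between libraries, which may be technical.

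Cytokines of the interleukin-6 family bind receptors that share the signalling chain gp130. The attached JAK kinases phosphorylate STAT3, which then dimerises, enters the nucleus and activates genes, among them those of the acute phase response of hepatocytes. STAT3 activity is set largely by this phosphorylation, which mRNA counts do not measure. Haptoglobin, encoded by Hp, is secreted by hepatocytes and captures free haemoglobin. Lipocalin-2, encoded by Lcn2, withholds iron from bacteria by binding their siderophores and is made by hepatocytes under inflammation as well as by neutrophils and other cells.

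The RefSeq promoter table (build GRCr8) held entries for 2 of the 3 genes by symbol, Stat3 and Lcn2. The part of each entry that lies upstream of the annotated gene is shown, 5′ to 3′ on the minus strand, as the flank of a transcription factor gene beside that of an acute phase gene. It covers chr10:86363514-86363609 for Stat3 (96 bases) and chr3:36081852-36082030 for Lcn2 (179 bases).
Stat3: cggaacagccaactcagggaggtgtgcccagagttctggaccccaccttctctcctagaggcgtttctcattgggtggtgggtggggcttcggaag
Lcn2: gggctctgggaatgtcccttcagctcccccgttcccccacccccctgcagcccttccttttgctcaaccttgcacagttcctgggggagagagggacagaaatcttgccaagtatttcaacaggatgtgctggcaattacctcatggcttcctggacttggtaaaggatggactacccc
The core STAT motif TTCNNNGAA, which reads the same on both strands, would be in capitals and was found 0 times in either full entry of 300 bases. Of all 33469 promoter entries of that length 8.87% held it. The absence of these letters says nothing about STAT3 at either gene.

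Library totals ranged from 33917707 to 37717373 counts. Levels are given as CPM, counts relative to library size, after scaling by the trimmed mean of M values (TMM), which sets libraries against each other so that the bulk of genes is level. The TMM factors were 0.92 and 0.915 in HCC/NAC, 1.19 and 1.18 in HCC, and 0.92 and 0.914 in control libraries. The scaling therefore lowers HCC values relative to both other groups, and CPM over the plain library total are given where this matters. The control files carry another name prefix than all 4 carcinogen-treated files. The labels do not say what it marks, and if it marks a batch, batch and carcinogen treatment cannot be told apart.

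Under TMM scaling Hp was highest in HCC/NAC livers, intermediate in control livers and lowest in HCC livers. Its level was 13248 and 13288 CPM in the HCC/NAC libraries, 7814 and 7929.6 CPM in the HCC libraries, and 10215 and 10322 CPM in the control libraries. Over plain library totals HCC and control livers were nearly level, at means of 9350 and 9412 CPM. No library of one group reached the range of another, and replicates differed 1.00-fold in HCC/NAC, 1.01-fold in HCC and 1.01-fold in control livers. The share of all tested IDs whose groups separate in this way was not counted. Lack of overlap, here and for the genes and ratios below, therefore does not set them apart from other IDs.

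**Figure D1:**
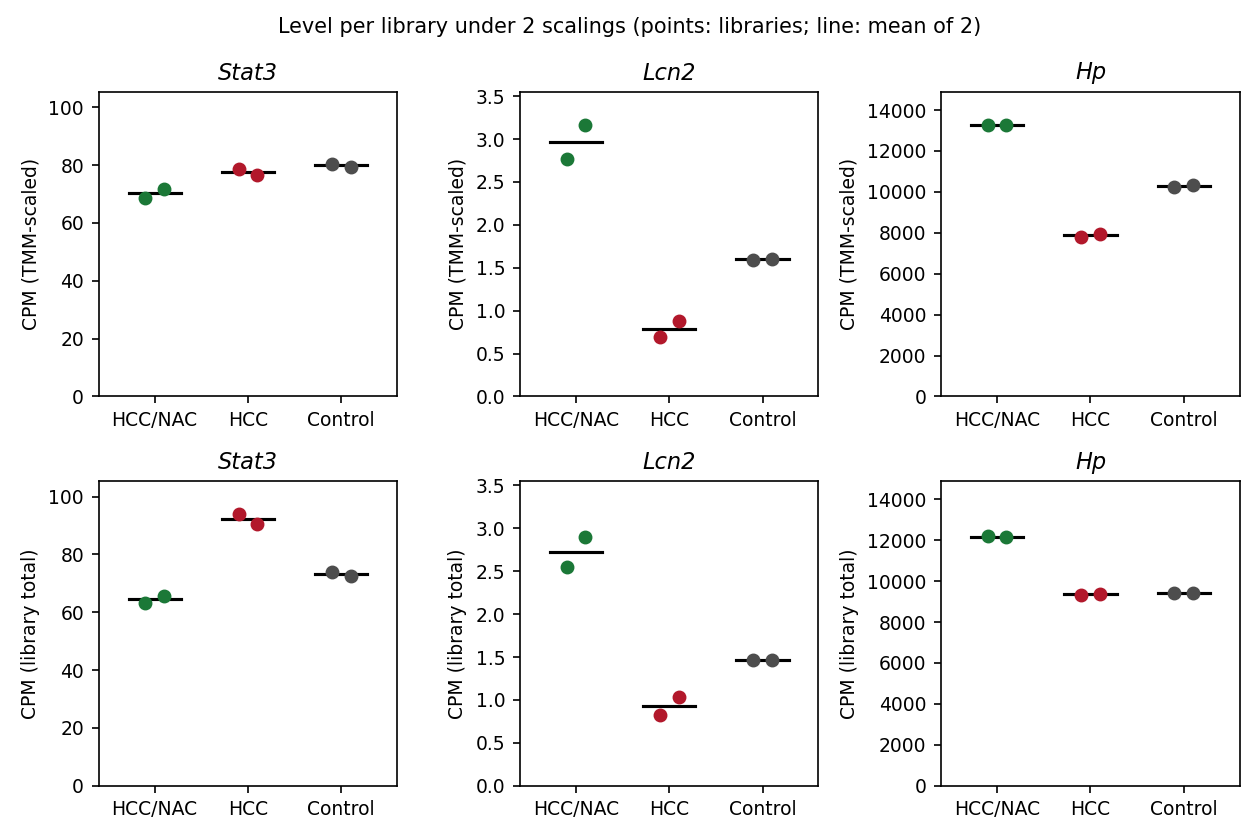
Level of Stat3, Lcn2 and Hp in each of the 6 libraries, in CPM with TMM scaling (upper row) and in CPM over the library total (lower row); points are libraries and lines are means of 2. Lcn2 and Hp are highest in HCC/NAC livers in both rows, whereas Hp in HCC and control livers differs in the upper row but hardly in the lower, and Stat3 in HCC livers lies above control only in the lower row.

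With NAC, Hp averaged 13268 ± 28.6 CPM in HCC/NAC livers, against 7872 ± 81.7 CPM in HCC livers (SD, n = 2 each). This was a rise of 1.69-fold, 0.75 ± 0.02 on the log2 scale (SE; 95% interval 0.71 to 0.79; adjusted p = 5.16e-11, edgeR quasi-likelihood test with Benjamini-Hochberg adjustment over 16898 tested IDs). By the same test 27.7% of all tested IDs were called between HCC/NAC and HCC livers, 4686 in number, of which 1899 were higher and 2787 lower; without HCC replicate 1 there were 3093. The change in Hp was not extreme in size, since 32.3% of tested IDs had a larger absolute log2 fold change. Hp also rose when libraries were scaled by their totals, though by less, with a log2 fold change of 0.38 (adjusted p = 8.29e-09, edgeR).

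Hp in HCC/NAC livers also exceeded the control level of 10269 ± 75.3 CPM (SD, n = 2). The rise was 1.29-fold, 0.37 ± 0.02 on the log2 scale (SE; adjusted p = 9.33e-09, edgeR), in a comparison in which 46.2% of tested IDs were called. Because Hp is abundant, this can also be read as a share of all counts. Hp took 1.22% ± 0.0022 of the counts in HCC/NAC livers, 0.935% ± 0.0024 in HCC livers and 0.941% ± 0.0021 in control livers (SD, n = 2 each). HCC/NAC livers thus stood above both other groups on this scale too.

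In HCC against control livers Hp fell by 0.38 on the log2 scale ± 0.02 (SE; 1.30-fold lower; adjusted p = 6.38e-09, edgeR) under TMM scaling, whereas over plain library totals its log2 fold change was -0.01 (adjusted p = 0.690, edgeR). Of all tested IDs 34.8% were called in this comparison. Hp in HCC livers was thus lower relative to most other genes, while its share of all counts was within 1.01-fold of the control share. TMM scaling gave 2876 higher and 3007 lower IDs between HCC and control livers, and scaling by totals 5398 and 1536. Between HCC/NAC and HCC livers, scaling by totals gave 783 higher and 5811 lower IDs. The median log2 fold change of all tested IDs moved likewise, to 0.42 from 0.05 in HCC against control and to -0.42 from -0.05 in HCC/NAC against HCC. In these bulk samples fewer cells of a type and less RNA per cell cannot be told apart. RefSeq places 1 other gene, Txnl4b, across part of the Hp locus, and how reads of overlapping genes were counted is not given in the sources used here.

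**Figure D2:**
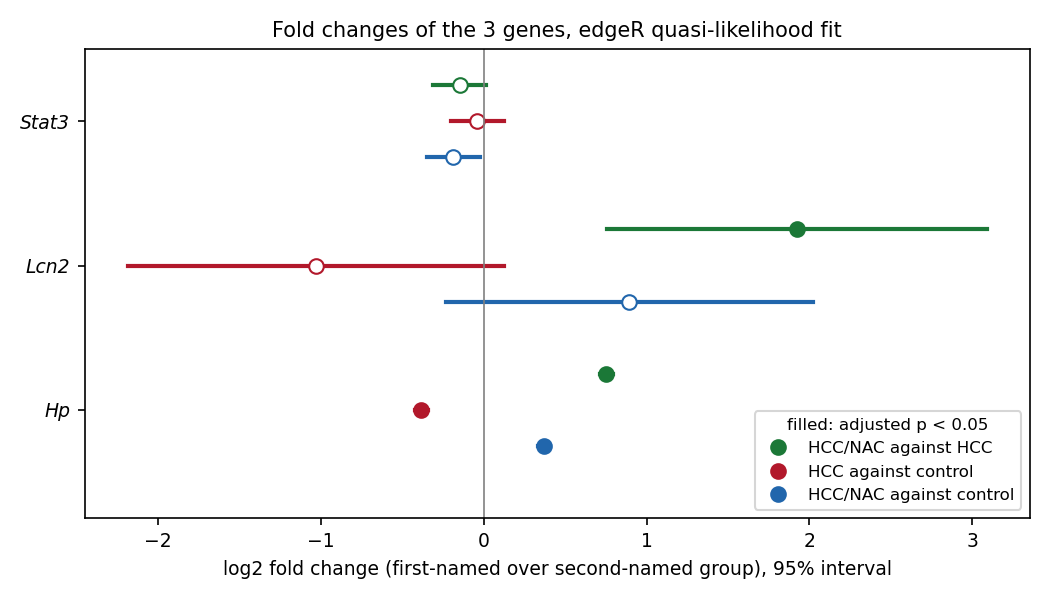
Log2 fold change (x axis, first-named over second-named group) of Stat3, Lcn2 and Hp in the 3 comparisons, with 95% intervals; filled points have an adjusted p under 0.05. All 3 comparisons of Hp are filled with intervals narrower than the points, Lcn2 is filled only in HCC/NAC against HCC with wide intervals, and none of Stat3 is filled.

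Lcn2 was weakly expressed, and its groups lay in the same order as those of Hp. It had 92 and 103 counts in the HCC/NAC libraries, 31 and 35 in the HCC libraries, and 55 and 53 in the control libraries. In CPM these were 2.77 and 3.17 in HCC/NAC, 0.688 and 0.874 in HCC, and 1.59 and 1.60 in control libraries. The groups did not overlap on either scale, a trait whose share among all tested IDs was not counted. Summed over the 2 libraries, the counts were 195 in HCC/NAC (exact Poisson 95% interval 169 to 224), 66 in HCC (51.0 to 84.0) and 108 in control (88.6 to 130). These intervals cover counting error only.

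With NAC, Lcn2 averaged 2.97 ± 0.28 CPM in HCC/NAC livers, against 0.781 ± 0.131 CPM in HCC livers (SD, n = 2 each). It rose 3.79-fold, 1.92 ± 0.53 on the log2 scale (SE; 95% interval 0.76 to 3.09; adjusted p = 0.0179, edgeR), and 6.97% of tested IDs had a larger absolute change. The call rested on both HCC libraries, since without HCC replicate 1 the adjusted p was 0.194 and without HCC replicate 2 it was 0.108 (edgeR), while the log2 fold change stayed at 1.74 and 2.08. Scaled by library totals the log2 fold change was 1.55 (adjusted p = 0.0392, edgeR).

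Against control livers, with 1.60 ± 0.01 CPM (SD, n = 2), neither difference in Lcn2 passed the test. In HCC/NAC livers the log2 fold change was 0.89 ± 0.51 (SE; 95% interval -0.23 to 2.02; adjusted p = 0.179, edgeR). In HCC livers it was -1.03 ± 0.53 (SE; 95% interval -2.19 to 0.13; adjusted p = 0.159, edgeR). Changes as large as 4-fold in the direction of each estimate lay within its interval.

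The counts of Lcn2 were low, and their part in the width of these intervals was not tested. Among IDs whose mean count in a group lay between the lowest and highest count of Lcn2, 31 to 103, replicates were over 2-fold apart for 30.3% in HCC/NAC, 8.06% in HCC and 22.5% in control livers. The replicates of Lcn2 itself were closer, differing 1.14-fold in HCC/NAC, 1.26-fold in HCC and 1.00-fold in control livers over library totals. The control pair was closer than in all but 0.262% of such IDs, so its small SD describes these libraries and is no guide to the error. Low counts also dropped out more often in some libraries: of IDs with 20 to 50 counts in the other replicate, the share without a count was 13.4% and 10.9% in the HCC/NAC libraries, 0.115% and 0.460% in the HCC libraries, and 11.5% and 2.95% in the control libraries. IDs with 1 to 5 counts numbered 632 and 708 in HCC/NAC, 2847 and 3364 in HCC, and 336 and 3271 in control libraries. The part of these differences in the result for Lcn2 was not tested.

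Stat3, the transcription factor itself, differed little between the groups. Its level was 68.6 and 71.9 CPM in the HCC/NAC libraries, 78.7 and 76.7 CPM in the HCC libraries, and 80.5 and 79.4 CPM in the control libraries. The groups did not overlap, but they lay within 1.14-fold of each other on average, and no comparison passed the test. The comparisons called were thus 0 of 3 for Stat3, 3 of 3 for Hp and 1 of 3 for Lcn2. Of all tested IDs 27.7% were called in HCC/NAC against HCC, 46.2% in HCC/NAC against control and 34.8% in HCC against control. Scaling by library totals removed the call for Hp in HCC against control, while its calls in both HCC/NAC comparisons stayed under every alternative. The same scaling gave calls for Stat3 in HCC against control and in HCC/NAC against HCC. At an unadjusted p under 0.05, 1 comparison of Stat3 passed, HCC/NAC against control.

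In HCC/NAC livers Stat3 averaged 70.2 ± 2.3 CPM, against 77.7 ± 1.4 CPM in HCC livers (SD, n = 2 each). The log2 fold change was -0.15 ± 0.07 (SE; 95% interval -0.31 to 0.02; adjusted p = 0.178, edgeR). Against control livers, with 79.9 ± 0.78 CPM (SD, n = 2), the log2 fold change in HCC/NAC livers was -0.19 ± 0.07 (SE; 95% interval -0.35 to -0.02; adjusted p = 0.0598, edgeR). Without HCC/NAC replicate 2 it was -0.24 (adjusted p = 0.0426, edgeR). With all libraries, the same log2 fold change was -0.21 without a low-count filter (adjusted p = 0.0494, edgeR) and -0.19 with scaling by library totals. It was smaller under some other processing, with -0.12 under RLE scaling (adjusted p = 0.224, edgeR) and -0.05 under upper-quartile scaling (adjusted p = 0.641, edgeR). It turned to 0.03 in the fit to IDs with a mean of at least 10 CPM (adjusted p = 0.785, edgeR). In HCC livers the log2 fold change against control was -0.04 ± 0.07 (SE; 95% interval -0.20 to 0.12; adjusted p = 0.716, edgeR), and 95.9% of tested IDs had a larger absolute change.

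The direction of Stat3 in HCC against control livers depended on the processing and was positive in 4 of 16 alternatives. In 3 of them it passed no test, with 0.04 under upper-quartile scaling, 0.08 in the fit to IDs with a mean of at least 10 CPM and 0.02 without control replicate 2. Over plain library totals it was at 94.0 and 90.6 CPM in the HCC libraries, against 74.1 and 72.5 CPM in the control libraries, a log2 fold change of 0.33 (adjusted p = 0.00355, edgeR). The median of all tested IDs under that scaling was higher still, at 0.42. On the same scale Stat3 was at 63.1 and 65.8 CPM in the HCC/NAC libraries, and its log2 fold change against HCC livers was -0.52 (adjusted p = 1.62e-04, edgeR), beside a median of -0.42. With TMM scaling as reported or over plain library totals, mean Stat3 was lowest in HCC/NAC livers, the group in which Hp and Lcn2 were highest. Under the reported scaling no Stat3 difference passed the test. In the fit to IDs with a mean of at least 10 CPM, Stat3 in HCC/NAC livers was not below control (log2 fold change 0.03).

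Ratios of 2 genes within a library do not depend on library scaling. The log2 ratio of Hp to Stat3 counts was 7.59 and 7.53 in the HCC/NAC libraries, 6.63 and 6.69 in the HCC libraries, and 6.99 and 7.02 in the control libraries. The groups did not overlap. Relative to Stat3, Hp was 1.87-fold higher in HCC/NAC than in HCC livers, 1.47-fold higher in HCC/NAC than in control livers, and 1.27-fold lower in HCC than in control livers. A ratio does not tell which of its 2 genes changed. Over plain library totals the log2 fold change in HCC against control was -0.01 for Hp and 0.33 for Stat3.

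**Figure D3:**
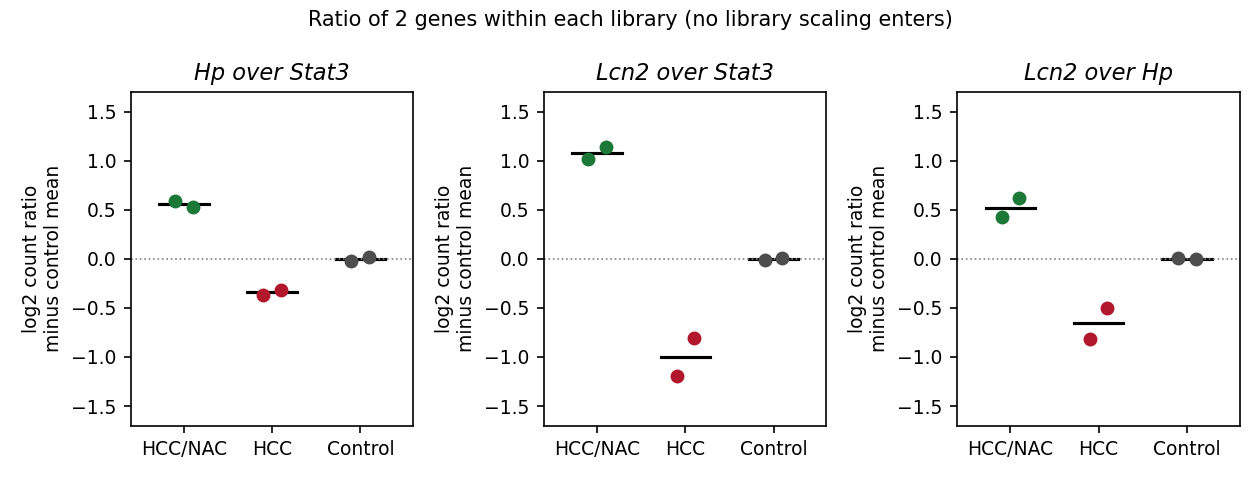
Log2 ratio of the counts of 2 genes within each library, minus the mean of the control libraries (y axis); points are libraries and lines are means of 2. For Hp over Stat3, Lcn2 over Stat3 and Lcn2 over Hp, HCC/NAC libraries lie above and HCC libraries below the control libraries.

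The log2 ratio of Lcn2 to Stat3 counts was -4.63 and -4.50 in the HCC/NAC libraries, -6.84 and -6.46 in the HCC libraries, and -5.66 and -5.63 in the control libraries. Relative to Stat3, Lcn2 was thus 4.23-fold higher in HCC/NAC than in HCC livers. The log2 ratio of Lcn2 to Hp counts was -12.2 and -12.0 in HCC/NAC, -13.5 and -13.1 in HCC, and -12.6 and -12.7 in control libraries. Each of these ratios separated the groups without overlap. The exact two-sided permutation test of 2 libraries against 2 gave p = 0.333 for each, the smallest it allows, and no other test of the ratios was made.

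The ID with the pattern most like each gene was sought among 13287 tested IDs with a mean of at least 1 CPM. The measure was the mean absolute difference of log2 CPM, centred on control, over 6 libraries. For Stat3 the nearest was ENSRNOG00000026963, at a mean difference of 0.02, and 321 IDs lay within 0.1. For Hp it was ENSRNOG00000083053, at a mean difference of 0.04, with 72 IDs within 0.1. For Lcn2 it was ENSRNOG00000069024, at a mean difference of 0.12, and 0 IDs lay within 0.1. This last ID was more abundant than Lcn2, with a mean of 49.0 CPM. Its log2 fold change was 1.57 in HCC/NAC against HCC, -0.77 in HCC against control and 0.79 in HCC/NAC against control. It was picked for its likeness to Lcn2 in these same libraries, so its changes are no separate evidence for those of Lcn2. The identity of these 3 IDs was not analysed here.

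**Figure D4:**
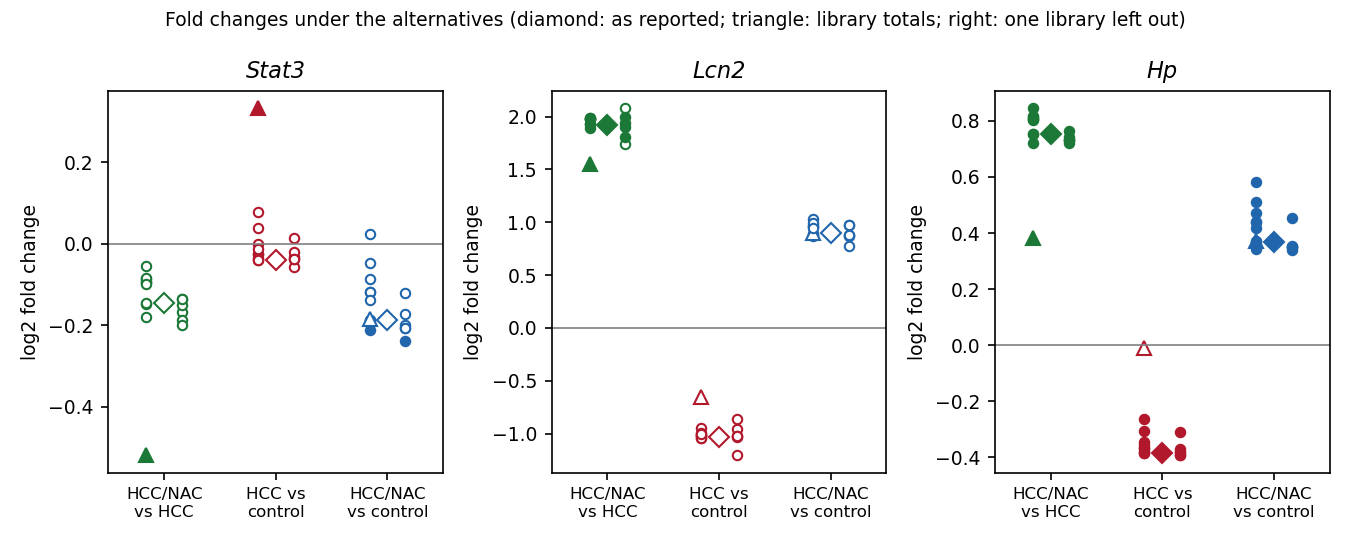
Log2 fold changes of Stat3, Lcn2 and Hp (y axes, each panel with its own scale) as reported (diamonds), under scaling by library totals (triangles), under the other alternatives (circles left of centre) and with 1 library left out (circles right of centre); filled symbols have an adjusted p under 0.05. Hp in HCC/NAC against HCC is filled throughout. The triangle of each gene lies above its other symbols in HCC against control and below them in HCC/NAC against HCC. In HCC/NAC against control the triangles lie among the other symbols.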

How the data were processed

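Poly(A) RNA-seq was deposited for 6 libraries, 2 per group, grouped by their titles and the design text; the labels' protocols call the animals mice, the organism label rat. The authors aligned reads with STAR, per the file headers, and FastQC, featureCounts and edgeR are also named by the submitters' processing notes. Not given in the sources used here are versions, genome build, annotation, strand and read-pair settings. The files as deposited hold unnormalized whole-number counts for each Ensembl ID, and 19392 IDs were 0 in every library. Duplicate reads are not mentioned, so a count is not a molecule.

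edgeR 4.0.16 (R 4.3.3) was applied to all 6 libraries: filterByExpr (16898 IDs, at least 99.95% of counts per library), TMM scaling and 1 quasi-likelihood model with group means and 3 residual degrees of freedom. Calls were made where the p adjusted by Benjamini-Hochberg over all tested IDs of the comparison was under 0.05. Standard errors were derived from the F statistic. The procedure was run on counts simulated with the spread fitted to these libraries, which cannot show how it handles spread between animals. Alternatives comprised DESeq2 1.42.0, scaling by RLE or by the upper quartile, limma 3.58.1 (voom with library weights), 3 other filters, a replicate block, the compared groups only, leaving out each library and, added after seeing the data, scaling by library totals. All 3 genes were reported whatever their result, with 1 nearest ID each. The genes, lists and alternatives were chosen with earlier results of these data known. Pathway and cell type lists could not be paired with IDs and were not used.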

Additional observations from a re-analysis of the deposited data

How the results depend on the processing

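Each log2 fold change was recomputed under 16 alternatives (15 for Lcn2, which a filter on a mean of at least 10 CPM left out). Hp against HCC and against control in HCC/NAC livers kept its direction and call in all 16, from 0.38 to 0.85 and from 0.34 to 0.58. Scaling by library totals changed 3 results: Stat3 in HCC against control turned to 0.33, Stat3 in HCC/NAC against HCC reached the threshold at -0.52, and Hp in HCC against control lost it at -0.0093; that scaling differs from the reported one in omitting the TMM factors. Stat3 in HCC against control was also above 0, without a call, under upper-quartile scaling (0.04), with IDs of a mean of at least 10 CPM (0.08) and without control replicate 2 (0.02). Stat3 in HCC/NAC against control passed at -0.21 without a low-count filter (adjusted p = 0.0494, edgeR), was -0.12 under RLE scaling and DESeq2, -0.09 with the stricter filter and -0.05 under upper-quartile scaling, and turned to 0.03 with IDs of a mean of at least 10 CPM; the cause was not tested. Leaving out 1 library gave -0.24 to -0.12 for Stat3 in HCC/NAC against control, 1.74 to 2.08 for Lcn2 in HCC/NAC against HCC, and 3093 to 5075 calls between HCC/NAC and HCC, with fewer samples in each fit and the lone library of a group assumed to vary like the other groups. Lcn2 against control stayed without a call in all 15 alternatives, in HCC from -1.21 to -0.66 and in HCC/NAC from 0.78 to 1.03. The libraries share only a replicate number: differences between replicates correlated across 7485 IDs at 0.00148 between HCC/NAC and HCC, 0.014 between HCC/NAC and control and 0.050 between HCC and control, and the replicate block changed no call of the 3 genes (Lcn2 in HCC/NAC against HCC 1.93, adjusted p = 0.0276, edgeR), with 5982, 7650 and 4861 calls in HCC against control, HCC/NAC against control and HCC/NAC against HCC. Of the 3 genes Lcn2 had the lowest counts, 31 to 103 per library.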
